A study of Rattus norvegicus with 22 samples.

Results

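Mesenteric (visceral) and inguinal (subcutaneous) fat were compared in rats that had undergone duodenal-jejunal bypass (DJB), surgery in which food no longer passes through the duodenum. All RNA-seq libraries with this depot and treatment in their labels were taken, which gave 6 visceral (VAT-DJB) and 5 subcutaneous (SAT-DJB) libraries of 22 in the series. The other 11 libraries, 6 visceral and 5 subcutaneous, came from rats with type 2 diabetes (T2DM) and served for the shared estimate of spread and as a second depot comparison. Both DJB groups are labelled as wild-type rats on a high-fat diet with the bypass, at 4 months. The T2DM groups share genotype, diet and the 4 months but not the bypass in their treatment field. The treatment text common to all samples gives streptozotocin, which damages pancreatic beta cells, at a dose of 30 mg/kg. No strain, sex or age of the animals is given beyond the 4 months in the titles, and the labels name neither a sham operation nor a healthy group. The cell type field of the labels names adipocytes, although both depots also held markers of other cells. The labels also do not say whether the replicates came from separate rats, so the p-values reflect only the scatter among these libraries, part of which may be technical.

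Visceral and subcutaneous adipose tissue store triglyceride and secrete hormones such as leptin and adiponectin, but they arise from different embryonic mesoderm. Mature fat cells and their precursors keep a positional programme of transcription factors: Wt1 and Tcf21 are known from visceral depots, Tbx15 and genes of the Irx family from subcutaneous ones. Visceral fat is covered by mesothelium, while the groin depot of rodents surrounds a mammary fat pad and a lymph node, so that a dissected piece can hold cells other than adipocytes.

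After bypass, 32 genes were higher and 153 lower in VAT-DJB than in SAT-DJB, of 14019 genes tested (edgeR's quasi-likelihood test on the counts, adjusted p under 0.05 by the Benjamini-Hochberg method over all genes). This is 1.32% of the genes, 0.228% higher and 1.09% lower. The 2 groups of libraries did not overlap in 20 of the 32 higher and 42 of the 153 lower genes. Over all tested genes, every VAT-DJB library was above every SAT-DJB library in 0.827% and below in 0.999%. Genes named below by fold or p were taken from those without overlap, so its lack in them is no separate result. The depot regulators Wt1 and Tcf21 led the genes higher in visceral fat, and Tbx15 led the lower ones. Cytokine and chemokine genes (Il6, Cxcl1, Cxcl2) were also higher in visceral fat. The lower side held 9 of 11 tested milk genes, 3 of 18 epithelial and 3 of 6 B cell markers. None of the 18 adipocyte markers tested, and none of 15 genes chosen around growth hormone, adiponectin and insulin action, to which the series' title points, passed the threshold.

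**Figure D1:**
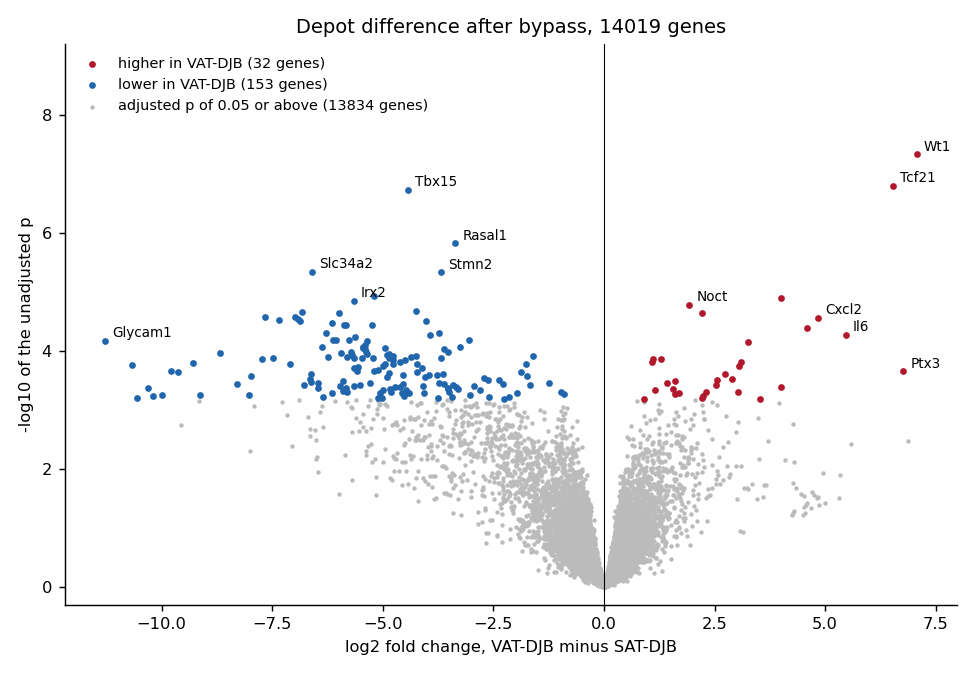
Depot difference of every tested gene after bypass. The horizontal axis is the log2 fold change, VAT-DJB minus SAT-DJB, the vertical axis -log10 of the unadjusted p of edgeR's quasi-likelihood test, and each point is a gene; red and blue points passed an adjusted p of 0.05. The 32 higher genes reach from Wt1 and Tcf21 down to small differences, and the 153 lower genes include many with log2 fold changes beyond -5.

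The count of calls depended on single libraries. Leaving out VAT-DJB libraries 1 to 6 in turn gave 11, 33, 41, 19, 10 and 10 calls. Leaving out SAT-DJB libraries 1 to 5 in turn gave 282, 114, 383, 6 and 486 calls. Among the T2DM libraries, which enter through the spread, the count was 112 without VAT-T2DM library 4, 107 without SAT-T2DM library 1 and 111 without SAT-T2DM library 3, and it reached 277 without VAT-T2DM library 2 and 264 without SAT-T2DM library 5. A fit of the 11 DJB libraries alone gave 7 calls, and scaling by TPM gave 11 higher and 154 lower genes, with the median of all genes at -0.16. The 6 genes called without SAT-DJB library 4 were Wt1, Tcf21, Tbx15, Rasal1, Stmn2 and Slc34a2, and these 6 were called in each of the 11 leave-one-out fits. All other calls were lost without that library.

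The libraries also differed in what tissue they held. Total counts were 58976705 to 88829000 in VAT-DJB and 46824314 to 76835895 in SAT-DJB libraries. Adipocyte markers, 18 genes that include adiponectin, perilipin and lipoprotein lipase, summed to 9000.4 to 19648 CPM in VAT-DJB (CPM, counts scaled to the library's size after TMM normalisation). In SAT-DJB libraries 1 to 5 they summed to 4862, 576, 6424, 5249 and 21006 CPM. SAT-DJB library 2 therefore held the adipocyte markers at the lowest level of all, against its adipose label. The same library held B cell markers at 3648 CPM, and SAT-DJB library 4 at 608 CPM, where the other SAT-DJB libraries had 20.2 to 32.3 CPM and VAT-DJB 14.2 to 28.2 CPM. Milk genes took 0.0282% to 0.133% of the counts in VAT-DJB and 0.137% to 7.91% in SAT-DJB, with the highest share in SAT-DJB library 4 (exact two-sided permutation test of the mean share, p = 0.00433, the smallest that 462 regroupings can give). The gene lists were chosen with earlier results of these data known, so this p does not test a list set beforehand. Mitochondrially encoded genes took 15.9% to 48.9% of the counts in VAT-DJB and 11.9% to 34.2% in SAT-DJB (exact permutation p = 0.307). Visceral libraries 5 and 6 stood apart from the other visceral ones with mesothelial markers at 451 and 317 CPM, where the other VAT-DJB libraries had 68.4 to 114 CPM. The fit was therefore repeated without SAT-DJB libraries 2 and 4 (11 genes or 0.0785% called), without VAT-DJB libraries 5 and 6 (3 or 0.0214%) and without all 4 (4 or 0.0285%). Of the 49 called genes named here, 7 were still called without SAT-DJB libraries 2 and 4 (Wt1, Tcf21, Tbx15, Irx1, Irx2, Rasal1 and Slc34a2). Wt1, Tcf21 and Tbx15 were the 3 still called without VAT-DJB libraries 5 and 6, and also without all 4. The calls of the other 42 genes were lost in each of these fits, whether or not the values are given beside them. In bulk tissue, fewer cells of a type and less RNA per cell cannot be told apart.

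**Figure D2:**
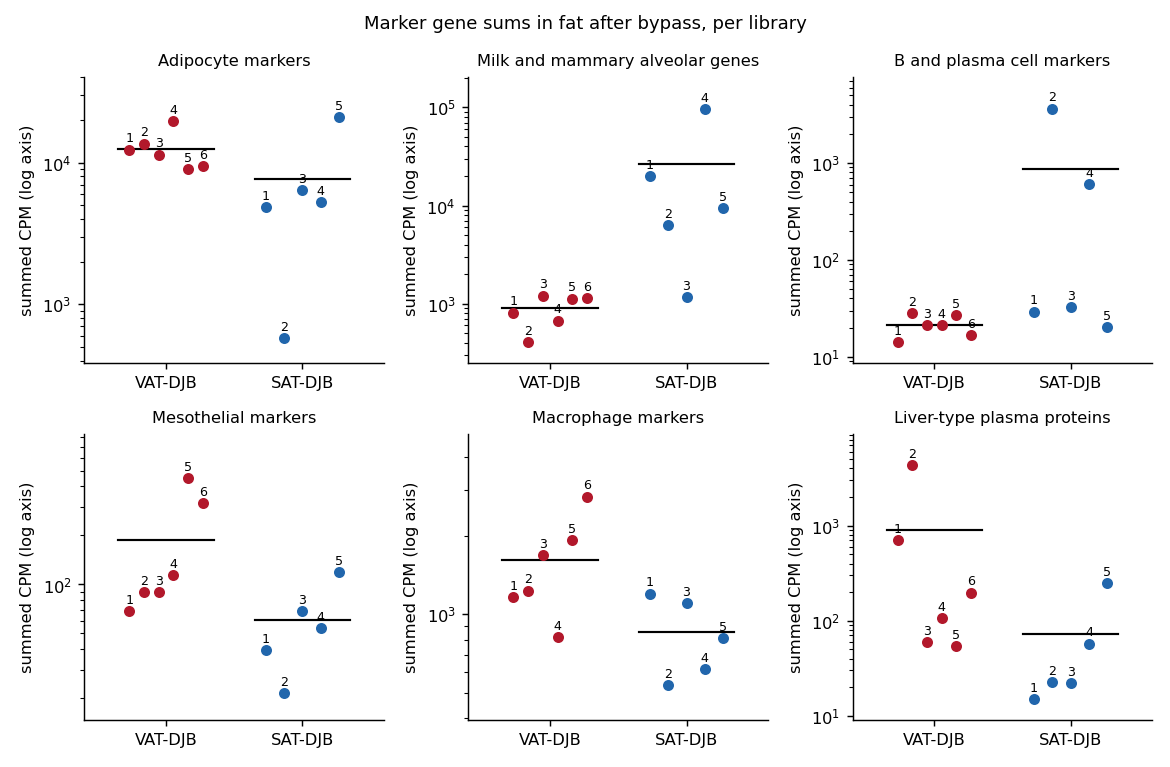
Summed CPM of 6 marker lists in each VAT-DJB and SAT-DJB library, on log axes, with replicate numbers beside the points and a bar at the group mean. SAT-DJB library 2 is lowest for adipocyte markers and highest for B cell markers, SAT-DJB library 4 is highest for milk genes, and VAT-DJB libraries 5 and 6 are highest for mesothelial markers.

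Depot regulators had the 3 smallest p of the comparison. Of 5 tested genes known as visceral developmental regulators, 3 were higher in VAT-DJB (Wt1, Tcf21 and Osr1), where 0.228% of all tested genes were. The median log2 fold change of the list was 2.52 beside -0.04 over all genes. That median was 1.07 without VAT-DJB libraries 5 and 6 and 0.81 without all 4 libraries that stood apart. Wt1 (ENSRNOG00000013074), a zinc finger factor of the mesothelium and visceral adipocyte precursors, was at 12.3 to 37.2 CPM with a median of 20.2 in VAT-DJB, against 0.181, 0.319, 0.0607, 0 and 0.225 CPM in the 5 SAT-DJB libraries. No SAT-DJB library came near the lowest visceral value (log2 fold change 7.07, SE 0.86, adjusted p = 0.000653), and a total of 57 counts in SAT-DJB stood against 8810 in VAT-DJB. Tcf21 (ENSRNOG00000016700), a basic helix-loop-helix factor of visceral precursors, was at 9.66 to 51.0 CPM with a median of 22.3 in VAT-DJB, against 0.301, 0, 0.471, 0.366 and 0.358 CPM in SAT-DJB. Its groups did not overlap either (log2 fold change 6.53, SE 0.85, adjusted p = 0.000878). Without all 4 libraries that stood apart, Wt1 still differed by 6.77 (adjusted p = 0.0234) and Tcf21 by 5.49 (adjusted p = 0.0234) on the log2 scale. Both were higher in visceral fat of the T2DM rats as well, with log2 fold changes of 6.34 (SE 0.83, adjusted p = 0.000471) for Wt1 and 7.39 (SE 0.89, adjusted p = 0.000158) for Tcf21.

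Osr1 and Gata6 behaved less uniformly. Osr1, a zinc finger factor of intermediate mesoderm, had 20.8, 32.0, 29.7, 18.8, 178 and 226 CPM in VAT-DJB libraries 1 to 6, against 15.3, 8.95, 15.7, 21.0 and 12.1 CPM in SAT-DJB. Libraries 5 and 6 were far above the other visceral ones, and libraries 1 and 4 fell within the subcutaneous range. Its log2 fold change of 2.52 (SE 0.60, adjusted p = 0.0412) became 0.79 (adjusted p = 0.389) without VAT-DJB libraries 5 and 6, and its call held in 2 of 11 leave-one-out fits, those without SAT-DJB library 3 or 5. Gata6, a zinc finger factor of mesoderm and endoderm, was at 8.12 to 14.6 CPM in VAT-DJB, against 6.88, 0.891, 4.57, 5.28 and 5.00 CPM in SAT-DJB. The groups did not overlap, but the difference missed the threshold (log2 fold change 1.24, SE 0.40, adjusted p = 0.117). Foxf1, a forkhead factor of visceral mesoderm and the remaining tested member, did not pass (log2 fold change -0.17, SE 0.61, adjusted p = 0.942).

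Of 13 tested subcutaneous developmental regulators, 4 were lower in VAT-DJB, where 1.09% of all tested genes were, and none was higher; the list's median was -0.61. Tbx15 (ENSRNOG00000019565), a T-box factor of skeletal and dermal development, was at 0.587 to 3.23 CPM with a median of 1.11 in VAT-DJB, against 32.4, 9.15, 37.7, 28.9 and 34.9 CPM in SAT-DJB. SAT-DJB library 2 was well below the other subcutaneous libraries and still above each visceral one (log2 fold change -4.43, SE 0.59, adjusted p = 0.000878). Leaving out single DJB libraries gave Tbx15 values of -4.96 to -4.28, and without all 4 libraries it was -4.61 (adjusted p = 0.0341). In the T2DM rats Tbx15 differed by -5.17 (SE 0.61, adjusted p = 0.000132).

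The other 3 were homeobox genes of the Iroquois family. Irx2 was at 0 to 1.02 CPM with a median of 0.439 in VAT-DJB, against 35.9, 2.59, 3.45, 73.7 and 11.4 CPM in SAT-DJB (log2 fold change -5.65, SE 1.01, adjusted p = 0.0204). Irx1, its neighbour in the same gene cluster, was at 0 to 1.07 CPM with a median of 0.270 in VAT-DJB, against 18.8, 2.99, 5.38, 40.3 and 7.67 CPM in SAT-DJB (log2 fold change -5.19, SE 0.91, adjusted p = 0.0204). Irx5 was at 0 to 0.469 CPM in VAT-DJB, against 6.11, 1.22, 1.64, 21.6 and 7.06 CPM in SAT-DJB (log2 fold change -5.25, SE 1.01, adjusted p = 0.0204). None of these 3 genes overlapped between the groups, and in each the highest value was that of SAT-DJB library 4, which also held the most milk and epithelial RNA. Without VAT-DJB libraries 5 and 6 their log2 fold changes were -5.81, -4.97 and -5.02 for Irx2, Irx1 and Irx5, with adjusted p of 0.145, 0.178 and 0.178. Without SAT-DJB libraries 2 and 4, Irx2 (-5.09, adjusted p = 0.0425) and Irx1 (-4.70, adjusted p = 0.0425) passed and Irx5 (-4.67, adjusted p = 0.0836) did not. Single omissions that ended a call were VAT-DJB library 1 or 6 or SAT-DJB library 4 for Irx2, VAT-DJB library 5 or 6 or SAT-DJB library 4 for Irx1, and VAT-DJB library 1, 2, 5 or 6 or SAT-DJB library 4 for Irx5.

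**Figure D3:**
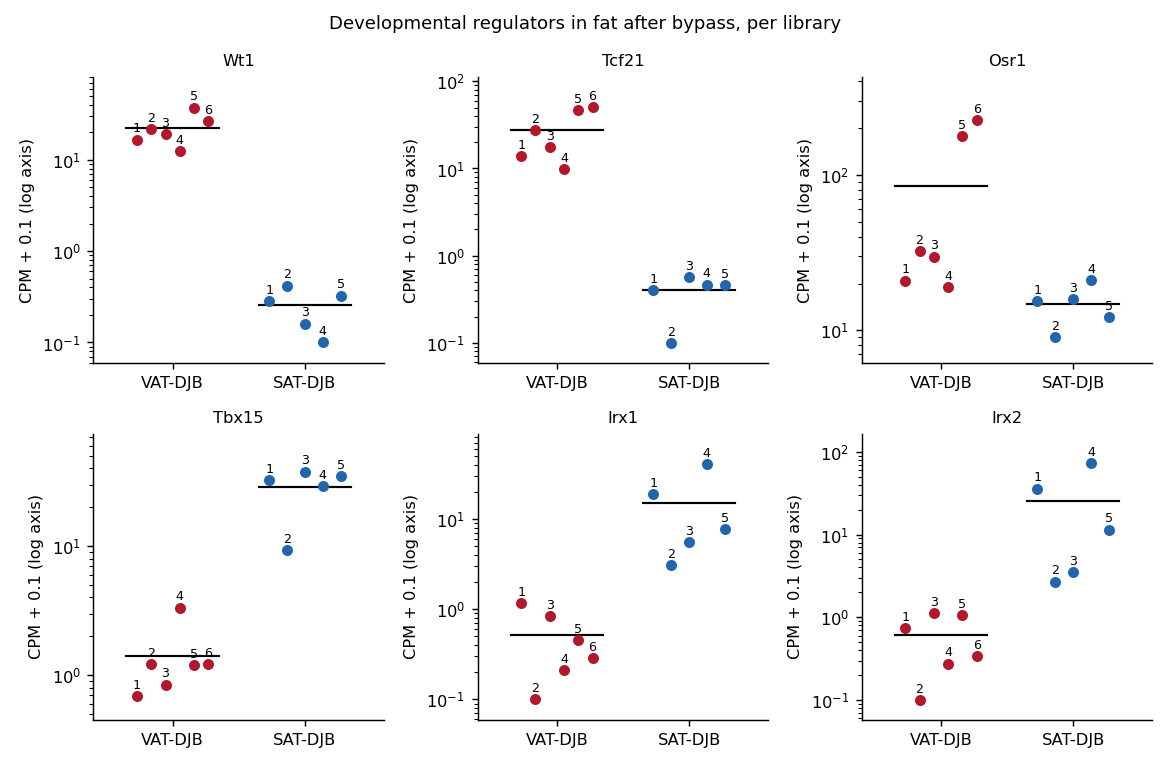
CPM plus 0.1 of 6 developmental regulators in each VAT-DJB and SAT-DJB library, on log axes, with replicate numbers beside the points and a bar at the group mean. Wt1 and Tcf21 lie above 9 CPM in every visceral library and below 0.5 CPM in every subcutaneous one, Tbx15, Irx1 and Irx2 lie the other way round without overlap, and Osr1 is set apart by VAT-DJB libraries 5 and 6.

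Hox genes, which mark position along the body axis, had 1 call after bypass. Of 39 Hox symbols 21 were tested and only Hoxd10 passed, lower in VAT-DJB, where 1.09% of all tested genes were. Hoxd10 was at 0.345 to 1.04 CPM in VAT-DJB, against 2.56, 1.24, 5.21, 4.42 and 6.15 CPM in SAT-DJB, without overlap (log2 fold change -2.36, SE 0.55, adjusted p = 0.0389). It was called in 4 of 11 leave-one-out fits, those without SAT-DJB library 1, 2, 3 or 5, and its log2 fold change stayed within -2.60 to -2.14. Hoxc10 (log2 fold change -1.05, SE 0.39, adjusted p = 0.2) and Hoxd9 (-0.57, SE 0.32, adjusted p = 0.449) did not pass. The median of the 21 genes was -0.04 with 8 positive. Without SAT-DJB libraries 2 and 4 it was -0.47 with 4 positive. The list summed to 37.2 CPM in SAT-DJB library 2, where the other SAT-DJB libraries had 108 to 182 CPM and VAT-DJB 110 to 132 CPM. In the T2DM rats the median of the list was 0.11, with 1 gene higher and none lower.

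Outside the developmental lists, 3 further genes were called in all 11 leave-one-out fits. Rasal1 (ENSRNOG00000001374), an activator of Ras GTP hydrolysis, was at 1.05 to 4.43 CPM with a median of 2.18 in VAT-DJB, against 26.5, 34.4, 16.4, 35.4 and 7.83 CPM in SAT-DJB. The lowest subcutaneous value of Rasal1 lay above the highest visceral one, which the rule for naming it (given below) required (log2 fold change -3.36, SE 0.51, adjusted p = 0.00527). Stmn2 (ENSRNOG00000011705), a stathmin that regulates microtubules, was at 1.07 to 7.27 CPM with a median of 2.92 in VAT-DJB, against 47.8, 35.2, 25.0, 66.1 and 29.6 CPM in SAT-DJB, without overlap by the same rule (log2 fold change -3.69, SE 0.61, adjusted p = 0.0109). Slc34a2 (ENSRNOG00000004626), a sodium-phosphate cotransporter of epithelia that include the mammary gland, was at 0.426 to 1.62 CPM in VAT-DJB, against 209, 30.2, 1.49, 145 and 14.96 CPM in SAT-DJB (log2 fold change -6.60, SE 1.08, adjusted p = 0.0109). SAT-DJB library 3, which had the lowest share of milk genes of that group, also had the lowest Slc34a2 and fell within the visceral range. Without VAT-DJB libraries 5 and 6, none of Rasal1 (-3.07, adjusted p = 0.0801), Stmn2 (-3.27, adjusted p = 0.0875) and Slc34a2 (-6.62, adjusted p = 0.127) passed. Without SAT-DJB libraries 2 and 4 they were at -2.84 (adjusted p = 0.0476), -3.43 (adjusted p = 0.0611) and -6.53 (adjusted p = 0.0391), in the same order. All 3 were also lower in visceral fat of the T2DM rats, at -5.02, -2.48 and -7.11 on the log2 scale for Rasal1, Stmn2 and Slc34a2.

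Crabp1, which binds retinoic acid in the cytoplasm, was the only one of 13 tested retinoid pathway genes to pass, where 1.32% of all genes did. It was at 0 counts in 4 of the 6 VAT-DJB libraries and at 0.1003 and 0.271 CPM in libraries 4 and 5, against 16.3, 4.34, 3.48, 27.9 and 1.92 CPM in SAT-DJB (log2 fold change -7.35, SE 1.39, adjusted p = 0.0204). All subcutaneous libraries were above all visceral ones, and the call held in 7 of 11 leave-one-out fits, with -8.78 to -6.65 on the log2 scale; it was lost without VAT-DJB library 1, 4 or 6 or SAT-DJB library 4. Aldh1a2, an enzyme that makes retinoic acid, did not pass (log2 fold change 1.40, SE 0.50, adjusted p = 0.162).

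Cytokine and chemokine genes were the list with the most calls on the visceral side. Of 21 tested members 4 were higher in VAT-DJB (Il6, Cxcl1, Cxcl2 and Cxcl16), where 0.228% of all tested genes were, and none was lower. The list's median log2 fold change was 0.54, with 15 positive, where 46.5% of all genes were. The promoters of the first 3, which moved together, are shown as RefSeq gives them for the GRCr8 build, from 250 bases before to 50 bases after the gene's start. Capitals mark matches on either strand to GGNNTTTCC, a short form of sites known for the inflammatory factor NF-kB; all 3 genes are on the minus strand.
Cxcl1 (chr14:17479272-17479571): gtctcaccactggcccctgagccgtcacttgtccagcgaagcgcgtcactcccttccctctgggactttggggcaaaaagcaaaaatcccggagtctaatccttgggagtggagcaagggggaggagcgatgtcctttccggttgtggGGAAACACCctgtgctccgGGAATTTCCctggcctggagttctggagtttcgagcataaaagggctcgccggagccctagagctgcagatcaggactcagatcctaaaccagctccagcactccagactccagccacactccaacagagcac
Cxcl2 (chr14:17467206-17467505): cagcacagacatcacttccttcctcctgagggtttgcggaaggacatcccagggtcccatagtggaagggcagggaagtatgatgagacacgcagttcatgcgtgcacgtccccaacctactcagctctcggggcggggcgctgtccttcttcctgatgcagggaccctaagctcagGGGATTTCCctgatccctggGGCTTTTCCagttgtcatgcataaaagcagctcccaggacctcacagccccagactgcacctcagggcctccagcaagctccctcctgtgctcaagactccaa
Il6 (chr4:5894526-5894825): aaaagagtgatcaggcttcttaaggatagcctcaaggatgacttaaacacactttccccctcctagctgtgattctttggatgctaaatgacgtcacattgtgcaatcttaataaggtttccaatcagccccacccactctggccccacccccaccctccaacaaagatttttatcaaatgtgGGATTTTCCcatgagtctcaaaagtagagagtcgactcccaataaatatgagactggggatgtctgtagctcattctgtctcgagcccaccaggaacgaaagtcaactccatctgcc
Cxcl1 and Cxcl2 held 2 matches each and Il6 held 1, with first bases at -102 and -83 in Cxcl1, -73 and -53 in Cxcl2 and -67 in Il6, counted from the start. The pattern was found in 6.05% of all 33469 promoters of that length and in 6.52% of the 10804 that belong to tested genes. It was found in 6 of the 13 tested members of the list that have a promoter in the table. These 6 were Il6, Cxcl1, Cxcl2 and the uncalled Cxcl9, Cxcl10 and Cxcl11. The called gene Cxcl16 was not among them. A match is a description of these letters and shows no binding.

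Il6, a cytokine of the acute phase response that fat also secretes, had 25.1, 48.3, 51.3, 3.38, 295 and 167 CPM in VAT-DJB libraries 1 to 6, against 1.72, 5.08, 1.18, 1.67 and 1.43 CPM in SAT-DJB. VAT-DJB libraries 5 and 6 were highest, and library 4 fell between the subcutaneous values (log2 fold change 5.47, SE 1.08, adjusted p = 0.0249). Cxcl1, a neutrophil-attracting chemokine, had 45.5, 61.6, 65.7, 19.1, 443 and 132 CPM in VAT-DJB, against 3.84, 0.585, 5.48, 9.88 and 6.72 CPM in SAT-DJB, with no overlap (log2 fold change 4.59, SE 0.89, adjusted p = 0.0217). Cxcl2, a chemokine of the same family, was at 3.69 to 65.5 CPM with a median of 8.85 in VAT-DJB, against 0.301, 0.266, 0.516, 1.23 and 0.782 CPM in SAT-DJB, also without overlap (log2 fold change 4.84, SE 0.91, adjusted p = 0.0204). Without VAT-DJB libraries 5 and 6 the 3 genes kept their sign but not their call, at 3.85, 3.17 and 3.50 for Il6, Cxcl1 and Cxcl2, with adjusted p of 0.178, 0.178 and 0.145. Single omission of VAT-DJB library 5 or 6 or SAT-DJB library 4 ended the call of each, and that of VAT-DJB library 1 ended the call of Il6 as well. In the T2DM rats the depot difference was 4.77 (SE 1.05, adjusted p = 0.00832) for Il6, 4.07 (SE 0.87, adjusted p = 0.00699) for Cxcl1 and 4.06 (SE 0.88, adjusted p = 0.00734) for Cxcl2.

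Cxcl16, a chemokine that also acts as a scavenger receptor, differed less but more evenly. It was at 51.9 to 85.5 CPM with a median of 69.0 in VAT-DJB, against 24.1, 37.1, 36.6, 31.8 and 30.5 CPM in SAT-DJB, and each visceral value was above each subcutaneous one (log2 fold change 1.11, SE 0.24, adjusted p = 0.0278). The call held in 4 of 11 leave-one-out fits, those without SAT-DJB library 1, 2, 3 or 5, and the log2 fold change stayed within 0.99 to 1.18. Ccl2, a monocyte chemoattractant, was at 24.7 to 315 CPM in VAT-DJB and 9.86 to 70.1 CPM in SAT-DJB, with overlap, and did not pass (log2 fold change 1.93, SE 0.64, adjusted p = 0.127).

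Tnfaip6 and Plod2, whose products modify the matrix, were also highest in VAT-DJB libraries 5 and 6. Tnfaip6, a hyaluronan-binding protein induced by inflammatory cytokines, was at 20.7 to 195 CPM with a median of 78.0 in VAT-DJB, against 19.0, 0.691, 17.2, 10.1 and 7.49 CPM in SAT-DJB (log2 fold change 3.05, SE 0.67, adjusted p = 0.0297). Plod2, a collagen lysyl hydroxylase, had 18.1, 18.6, 17.1, 15.2, 92.1 and 67.3 CPM in VAT-DJB, against 3.52, 10.1, 2.60, 2.51 and 1.25 CPM in SAT-DJB (log2 fold change 3.25, SE 0.66, adjusted p = 0.0264). Neither Tnfaip6 nor Plod2 overlapped between the groups, which the rule for naming them (given below) required. Without VAT-DJB libraries 5 and 6 neither passed, with 2.30 for Tnfaip6 and 2.11 for Plod2. The call of Tnfaip6 held only without VAT-DJB library 4 or SAT-DJB library 1, 2, 3 or 5, and that of Plod2 was lost without VAT-DJB library 1, 5 or 6 or SAT-DJB library 4.

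Ptx3, a secreted pattern recognition protein, was chosen for mention after its values were seen. It had 3.45, 4.38, 9.23, 3.07, 453 and 516 CPM in VAT-DJB libraries 1 to 6, against 1.70, 0.0532, 0.866, 3.50 and 1.52 CPM in SAT-DJB. Libraries 5 and 6 were far above every other library, and visceral libraries 1 and 4 overlapped with the subcutaneous range. The log2 fold change of 6.76 (SE 1.52, adjusted p = 0.0335) became 1.72 (adjusted p = 0.437) without the 2 libraries, and the call held only without VAT-DJB library 2 or 3 or SAT-DJB library 1, 3 or 5. In the same 2 libraries Timp1, an inhibitor of matrix metalloproteinases, was at 378 and 219 CPM, where the other visceral libraries had 8.12 to 16.3 CPM. Hspa5, the main chaperone of the endoplasmic reticulum, was at 2043 and 2186 CPM there, where the other visceral libraries had 292 to 481 CPM. Cd163, a macrophage scavenger receptor, was at 451 and 694 CPM, where the other visceral libraries had 50.3 to 117 CPM. The part of these differences in the depot results was not tested beyond leaving the libraries out.

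**Figure D4:**
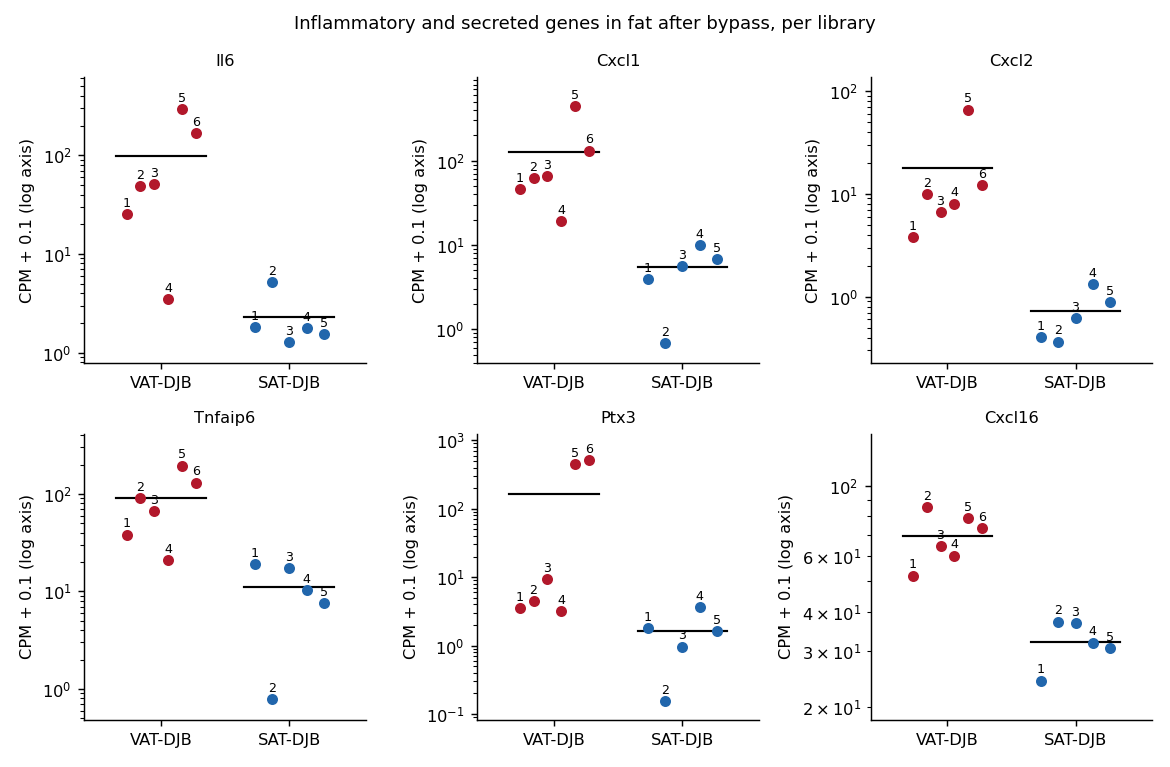
CPM plus 0.1 of 6 inflammatory and secreted genes in each VAT-DJB and SAT-DJB library, on log axes, with replicate numbers beside the points and a bar at the group mean. VAT-DJB libraries 5 and 6 are the highest for Il6, Cxcl1, Cxcl2, Tnfaip6 and Ptx3, while Cxcl16 is spread evenly with every visceral library above every subcutaneous one.

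A second set of visceral genes was not highest in libraries 5 and 6. Noct, a circadian phosphatase with roles in lipid metabolism, was at 36.4 to 87.5 CPM with a median of 55.8 in VAT-DJB, against 13.4, 5.98, 18.1, 19.9 and 22.01 CPM in SAT-DJB, without overlap (log2 fold change 1.93, SE 0.35, adjusted p = 0.0204). It was 2.10 without VAT-DJB libraries 5 and 6 (adjusted p = 0.0735), and its call held in 10 of 11 leave-one-out fits, the exception being SAT-DJB library 4. Lypd1, a membrane-anchored modulator of nicotinic receptors, was at 11.9 to 24.9 CPM with a median of 17.0 in VAT-DJB, against 4.61, 1.56, 2.93, 5.05 and 4.90 CPM in SAT-DJB (log2 fold change 2.21, SE 0.41, adjusted p = 0.0204). Cdc42ep3, an effector of the GTPase Cdc42, was at 57.8 to 146 CPM with a median of 73.8 in VAT-DJB, against 21.8, 37.2, 31.7, 46.6 and 34.3 CPM in SAT-DJB (log2 fold change 1.30, SE 0.28, adjusted p = 0.0278). Acsl4, which activates long-chain polyunsaturated fatty acids, was at 70.2 to 104 CPM with a median of 81.7 in VAT-DJB, against 49.1, 26.6, 40.2, 34.0 and 48.9 CPM in SAT-DJB (log2 fold change 1.08, SE 0.23, adjusted p = 0.029). In all 4 genes each visceral library was above each subcutaneous one, which the rule for naming them (given below) required. The highest value of each was in VAT-DJB library 2. Lypd1 lost its call without VAT-DJB library 1 or 5 or SAT-DJB library 4. Cdc42ep3 was called only without SAT-DJB library 1, 2, 3 or 5, and Acsl4 only without SAT-DJB library 1, 3 or 5. Their log2 fold changes stayed within 2.00 to 2.32 for Lypd1, 1.03 to 1.40 for Cdc42ep3 and 0.95 to 1.17 for Acsl4. All 4 had the same sign in the T2DM rats, with 1.46 for Noct, 2.10 for Lypd1, 0.73 for Cdc42ep3 and 0.81 for Acsl4.

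The other named visceral genes were Star, F2rl1, Gja5 and Gpc3, and each was called in 1 to 4 of the 11 leave-one-out fits. Star held without VAT-DJB library 3 or SAT-DJB library 1, 3 or 5, F2rl1 without SAT-DJB library 1, 3 or 5, Gja5 without SAT-DJB library 2, 3 or 5, and Gpc3 without SAT-DJB library 1. Star, which delivers cholesterol to mitochondria for steroid synthesis, was at 1.89 to 25.2 CPM with a median of 6.88 in VAT-DJB, against 1.64, 1.58, 1.03, 1.28 and 1.07 CPM in SAT-DJB (log2 fold change 2.75, SE 0.62, adjusted p = 0.035). F2rl1, a receptor activated by proteases, was at 14.8 to 75.4 CPM with a median of 42.3 in VAT-DJB, against 12.6, 3.90, 4.01, 7.37 and 10.5 CPM in SAT-DJB (log2 fold change 2.55, SE 0.59, adjusted p = 0.0389). Gja5, the gap junction protein connexin 40 of arterial endothelium, was at 44.5 to 94.2 CPM with a median of 81.9 in VAT-DJB, against 14.5, 1.40, 25.8, 13.4 and 27.4 CPM in SAT-DJB (log2 fold change 2.23, SE 0.55, adjusted p = 0.0472). Gpc3, a cell-surface heparan sulphate proteoglycan, was at 22.2 to 94.3 CPM with a median of 46.5 in VAT-DJB, against 21.8, 1.29, 13.6, 13.4 and 7.48 CPM in SAT-DJB (log2 fold change 2.22, SE 0.55, adjusted p = 0.0486). None of these 4 genes overlapped between the groups, which the rule for naming them (given below) required. For F2rl1, Gja5 and Gpc3 the lowest value was that of SAT-DJB library 2. Blood endothelial markers as a list, none of them called, had all 12 log2 fold changes positive, where 46.5% of all genes were. Their median was 0.61, and 0.15 without SAT-DJB libraries 2 and 4.

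No adipocyte marker passed the threshold between the depots after bypass. All 18 tested markers had a positive log2 fold change, where 46.5% of all genes did, with a median of 0.80, but none was called and the groups overlapped in each; 17 were positive with TPM scaling. Lpl, which releases fatty acids from circulating triglyceride, was at 1921 to 3609 CPM in VAT-DJB, against 1279, 182, 782, 915 and 3681 CPM in SAT-DJB (log2 fold change 0.96, SE 0.49, adjusted p = 0.39). Lipe, the hormone-sensitive lipase, was at 457 to 1225 CPM in VAT-DJB, against 377, 53.3, 425, 403 and 1053 CPM in SAT-DJB (log2 fold change 0.83, SE 0.53, adjusted p = 0.521). Adrb3, the fat cell's beta-3 adrenergic receptor, was at 22.5 to 119.8 CPM in VAT-DJB, against 3.90, 0, 2.28, 2.41 and 51.6 CPM in SAT-DJB (log2 fold change 2.11, SE 1.13, adjusted p = 0.421). In each of the 3, SAT-DJB library 2 was lowest and SAT-DJB library 5 was within the visceral range or, for Lpl, above it. SAT-DJB libraries 1 to 4 were below every visceral library in these 3 genes. The same held for the sum of the list, at 576 to 6424 CPM in these 4 libraries against at least 9000.4 CPM in VAT-DJB. The overlap in that sum thus came from SAT-DJB library 5 alone (21006 CPM). The median of the list was 0.29 without SAT-DJB libraries 2 and 4. In the T2DM rats it was 2.77, with 11 of 18 higher and none lower, where 5.44% of all genes were higher. Of these markers 6 were higher in the T2DM rats without VAT-T2DM library 2 and 4 without VAT-T2DM library 5, at medians of 2.61 and 2.40.

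The same held for hormones, receptors and signalling genes around adiponectin, growth hormone and insulin. Adipoq, which encodes adiponectin, had 1184, 2023, 741, 2803, 974 and 749 CPM in VAT-DJB, against 334, 79.5, 116, 322 and 2576 CPM in SAT-DJB. The subcutaneous values spread from the lowest to near the highest of the 11 libraries (log2 fold change 1.04, SE 0.74, adjusted p = 0.583). Ghr, the growth hormone receptor, was at 168 to 369 CPM in VAT-DJB, against 129.6, 8.82, 97.0, 94.8 and 278 CPM in SAT-DJB (log2 fold change 1.03, SE 0.49, adjusted p = 0.343). Without SAT-DJB library 2, which held few adipocyte transcripts, the log2 fold changes were 0.73 for Adipoq and 0.71 for Ghr. Lep, which encodes leptin, was at 50.6 to 429 CPM with a median of 214 in VAT-DJB, against 26.7, 0.598, 4.22, 15.7 and 325 CPM in SAT-DJB (log2 fold change 1.63, SE 1.06, adjusted p = 0.534).

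Log2 fold changes of the other axis genes follow in parentheses. Downstream of the growth hormone receptor, Jak2 (0.28, SE 0.25, adjusted p = 0.684), Stat5a (-1.03, SE 0.42, adjusted p = 0.253) and Stat5b (-0.07, SE 0.26, adjusted p = 0.945) carry the signal, and the test called none of them. Their targets Igf1 (0.99, SE 0.48, adjusted p = 0.361), Socs2 (0.60, SE 0.37, adjusted p = 0.504) and Cish (0.26, SE 0.60, adjusted p = 0.905) did not pass either. The adiponectin receptors Adipor1 (0.20, SE 0.18, adjusted p = 0.689) and Adipor2 (0.81, SE 0.47, adjusted p = 0.464) also stayed above the threshold. The insulin receptor gene Insr (0.72, SE 0.39, adjusted p = 0.426) and Slc2a4 (0.01, SE 0.54, adjusted p = 0.998), which encodes the insulin-responsive glucose transporter, were not called. Neither was Pparg (0.63, SE 0.49, adjusted p = 0.625), the master regulator of fat cell differentiation. Ucp1, the uncoupling protein of thermogenic fat, was at 0 to 7.90 CPM in VAT-DJB and 0 to 5.99 CPM in SAT-DJB (0.51, SE 1.88, adjusted p = 0.945). A p above the threshold does not show that the depots had the same level, and the SE of these genes ran from 0.18 to 1.88 on the log2 scale.

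Around the axis, 1 of 18 tested insulin signalling genes (Grb14) was higher in VAT-DJB, where 0.228% of all tested genes were, and none was lower. Grb14, an adaptor that inhibits the insulin receptor, was at 35.8, 38.0, 28.3, 9.46, 29.3 and 24.4 CPM in VAT-DJB, against 4.94, 5.68, 6.14, 11.7 and 16.4 CPM in SAT-DJB. Only visceral library 4 fell within the subcutaneous range (log2 fold change 1.61, SE 0.38, adjusted p = 0.0403). The call held in 2 of 11 leave-one-out fits, those without VAT-DJB library 4 or SAT-DJB library 5, with 1.46 to 1.95 on the log2 scale. Of 18 growth hormone and IGF genes none passed with edgeR's test. The smallest p among them was that of Igfbp2, a binding protein for insulin-like growth factors (log2 fold change -3.64, SE 1.11, adjusted p = 0.101), whose groups did not overlap. Igfbp2 was at 0.456 to 1.24 CPM in VAT-DJB, against 7.23, 1.32, 1.52, 37.6 and 3.49 CPM in SAT-DJB, highest in SAT-DJB library 4. With DESeq2, Igfbp2 (adjusted p = 0.00527) and Socs3 of the same list (adjusted p = 0.0308) passed.

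Of 21 genes of fatty acid and triglyceride synthesis 2 were lower in VAT-DJB, where 1.09% of all tested genes were. None was higher, and the median was -0.42. Scd2, a desaturase that makes monounsaturated fatty acids, was at 44.3 to 66.7 CPM with a median of 54.5 in VAT-DJB, against 142, 279, 201, 228 and 79.2 CPM in SAT-DJB, without overlap (log2 fold change -1.76, SE 0.39, adjusted p = 0.0292). Fasn, the fatty acid synthase, was at 48.1 to 210.4 CPM with a median of 103 in VAT-DJB, against 2584, 451, 82.6, 6613 and 768 CPM in SAT-DJB (log2 fold change -4.22, SE 0.95, adjusted p = 0.0342). Fasn was highest in SAT-DJB library 4 and next in library 1, the libraries with the most milk gene counts, while library 3 fell within the visceral range. Without SAT-DJB libraries 2 and 4, Fasn was -3.35 (adjusted p = 0.227) and Scd2 -1.36 (adjusted p = 0.337). Both calls were lost without any 1 VAT-DJB library or SAT-DJB library 4, and that of Scd2 without SAT-DJB library 2 too. Fads1, a desaturase of polyunsaturated fatty acids (log2 fold change -2.01, SE 0.59, adjusted p = 0.0865), and Acacb, an acetyl-CoA carboxylase (-3.17, SE 0.96, adjusted p = 0.0959), missed the threshold with their highest values in the same library. None of 73 oxidative phosphorylation, 19 fatty acid oxidation, 21 cholesterol synthesis and 14 thermogenic genes was called, with medians of 0.08, 0.14, 0.17 and 0.35.

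Milk genes were the list with the most calls on the subcutaneous side. Of 11 tested genes of milk and mammary alveolar cells 9 were lower in VAT-DJB, where 1.09% of all tested genes were. None was higher, and the median was -6.15. The promoters of 3 casein genes, which moved together, are shown from the same RefSeq table and build. Capitals mark matches to TTCNNNGAA, which reads the same on both strands and is the pattern of sites known for STAT factors, through which prolactin acts; Csn2 is on the plus strand and the other 2 genes on the minus strand.
Csn1s1 (chr14:20638800-20639099): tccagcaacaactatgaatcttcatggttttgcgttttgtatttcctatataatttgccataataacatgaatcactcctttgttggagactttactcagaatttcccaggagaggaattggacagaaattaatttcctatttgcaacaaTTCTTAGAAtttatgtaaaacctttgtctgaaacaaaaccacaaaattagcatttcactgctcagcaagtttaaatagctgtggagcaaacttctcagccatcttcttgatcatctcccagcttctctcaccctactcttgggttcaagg
Csn2 (chr14:20601574-20601873): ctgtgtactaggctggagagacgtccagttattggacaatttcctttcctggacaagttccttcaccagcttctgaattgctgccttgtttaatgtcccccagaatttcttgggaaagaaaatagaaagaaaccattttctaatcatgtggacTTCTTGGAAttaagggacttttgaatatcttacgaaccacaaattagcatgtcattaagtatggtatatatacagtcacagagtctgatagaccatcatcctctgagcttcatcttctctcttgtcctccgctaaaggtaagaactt
Csn1s2a (chr14:20574422-20574721): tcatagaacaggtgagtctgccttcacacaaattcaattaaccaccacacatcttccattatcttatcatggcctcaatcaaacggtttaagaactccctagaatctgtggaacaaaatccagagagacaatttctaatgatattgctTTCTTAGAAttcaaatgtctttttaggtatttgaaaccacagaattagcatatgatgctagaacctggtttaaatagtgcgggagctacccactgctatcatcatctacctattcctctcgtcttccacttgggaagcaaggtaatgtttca
Each held 1 match, with its first base at -100 in Csn1s1, -97 in Csn2 and -102 in Csn1s2a. The pattern was found in 8.87% of all promoters of that length and in 6.71% of the 10804 that belong to tested genes. It was found in 5 of the 10 tested members of the list that have a promoter in the table. These 5 were Csn1s1, Csn2, Csn1s2a, Csn1s2b and Glycam1. The called genes Csn3, Lalba, Elf5 and Btn1a1 were not among them. Here too a match describes the letters and shows no binding.

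Csn1s1, the alpha-S1 casein, had 378, 0.717, 555, 247, 297 and 342 CPM in VAT-DJB libraries 1 to 6, against 15361, 4869.8, 570.5, 87633 and 6616 CPM in SAT-DJB (log2 fold change -6.24, SE 1.33, adjusted p = 0.0278). SAT-DJB library 3 was the lowest of its group and lay just above the highest visceral value, while VAT-DJB library 2 was near 0. Csn2, the beta casein, was at 0 to 3.20 CPM with a median of 1.44 in VAT-DJB, against 157, 58.6, 4.98, 664 and 129 CPM in SAT-DJB (log2 fold change -6.98, SE 1.31, adjusted p = 0.0204). Csn3, the kappa casein that stabilises the micelle, was at 0.0652 to 24.2 CPM with a median of 10.6 in VAT-DJB, against 2285, 393, 59.1, 2977 and 1327 CPM in SAT-DJB (log2 fold change -6.88, SE 1.31, adjusted p = 0.0204). In all 3 the order of the subcutaneous libraries put library 4 first and library 3 last. Csn1s2a (log2 fold change -6.92, SE 1.31, adjusted p = 0.0204), Csn1s2b (-6.15, SE 1.17, adjusted p = 0.0204) and the lactose synthase subunit Lalba (-6.12, SE 1.24, adjusted p = 0.0257) were lower to a similar degree. So were Elf5 (-5.82, SE 1.12, adjusted p = 0.0204), a factor of alveolar differentiation, and Btn1a1 (-5.71, adjusted p = 0.0278), a protein of the milk fat globule membrane. Outside the list, Muc15 (-6.82, SE 1.26, adjusted p = 0.0204), a mucin of that membrane, Olah (-5.87, SE 1.13, adjusted p = 0.0204), a thioesterase that releases medium-chain fatty acids, and Oprpn (-6.28, SE 1.24, adjusted p = 0.0248) were lower too. The calls of Csn2, Csn3, Csn1s2a, Csn1s2b, Lalba, Elf5, Muc15, Olah and Oprpn held in 6 of 11 leave-one-out fits and were lost without VAT-DJB library 1, 4, 5 or 6 or SAT-DJB library 4, and those of Csn1s1 and Btn1a1 without VAT-DJB library 3 too. Without SAT-DJB libraries 2 and 4, Csn2 was -5.94 (adjusted p = 0.0836), and no member of the list was called. Caseins share sequence and a gene cluster, so counts may be split between them. In the T2DM rats 10 of the 11 milk genes were lower in visceral fat, with a median of -7.61.

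B cell markers were highest in SAT-DJB libraries 2 and 4, and epithelial genes were also high in other subcutaneous libraries. Of 18 mammary and skin epithelial markers 3 were lower in VAT-DJB (Krt17, Cldn3 and Esrp1), where 1.09% of all tested genes were. The median was -4.04, and the list summed to 14.6 to 37.0 CPM in VAT-DJB, against 259.5, 88.3, 39.1, 1314 and 161 CPM in SAT-DJB. Without SAT-DJB libraries 2 and 4 the median of this list was -2.65, with all 18 members still negative and none called. Cldn3, a tight junction protein, was at 0.436 to 2.92 CPM in VAT-DJB, against 23.3, 7.91, 0.456, 137 and 11.4 CPM in SAT-DJB (log2 fold change -5.11, SE 1.14, adjusted p = 0.0329). Of 6 tested B and plasma cell markers 3 were lower in VAT-DJB (Cd22, Cd79a and Cd79b), beside the same 1.09% of all genes. Cd79a, a subunit of the B cell receptor, was at 0.637 to 2.78 CPM in VAT-DJB, against 1.11, 412, 1.88, 69.2 and 1.31 CPM in SAT-DJB (log2 fold change -6.37, SE 1.32, adjusted p = 0.0278). Outside SAT-DJB libraries 2 and 4 the values lay in 1 range, and without these libraries the log2 fold change of Cd79a was -0.29 and that of its partner subunit Cd79b was 0.92, against -6.34 with them. Cd22 and Cd79a were called only without VAT-DJB library 3 or SAT-DJB library 1, 3 or 5, Cd79b only without SAT-DJB library 1, 3 or 5, and the calls of Krt17, Cldn3 and Esrp1 were lost without any 1 VAT-DJB library or SAT-DJB library 4. The median of the B cell list was -5.90 and became -0.15 without the 2 libraries. T and NK cell markers, with no call, were at a median of -2.55 with and 0.69 without the 2 libraries. They summed to 1558 CPM in SAT-DJB library 2 but to 166.5 CPM in library 4, below the highest VAT-DJB value of 192 CPM. MHC class II genes were at a median of -1.52 with and 0.21 without the 2 libraries.

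Glycam1, the last of the 9, belongs to the milk list and is also a ligand for lymphocytes on the vessels of lymph nodes. It was detected in 1 VAT-DJB library only, with 12 counts in library 1, against 0.663, 341, 0, 70.4 and 0.742 CPM in SAT-DJB libraries 1 to 5. SAT-DJB library 2, which held the most B cell RNA, was highest (log2 fold change -11.27, SE 2.28, adjusted p = 0.0257), and the log2 fold change was -3.81 (adjusted p = 0.842) without SAT-DJB libraries 2 and 4. Sox10, a factor of Schwann cells that mammary epithelium also expresses, was the only one of 9 tested Schwann cell and nerve genes to pass, lower in VAT-DJB (log2 fold change -3.67, SE 0.79, adjusted p = 0.0278). It was at 1.63 to 4.78 CPM in VAT-DJB, against 37.0, 10.1, 9.46, 123 and 18.1 CPM in SAT-DJB. Over all tested genes, 1.09% were lower in VAT-DJB. The calls of Glycam1 and Sox10 were lost without any 1 VAT-DJB library or SAT-DJB library 4.

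Macrophage and plasma protein genes leaned to the visceral side without a call. All 15 tested macrophage markers had a positive log2 fold change, where 46.5% of all genes did, with a median of 0.86. The list summed to 821 to 2827 CPM in VAT-DJB, against 1202, 536, 1107, 619 and 810.4 CPM in SAT-DJB. Msr1, a scavenger receptor, had 15.3, 22.04, 21.7, 11.7, 62.9 and 97.2 CPM in VAT-DJB, against 13.7, 1.97, 13.5, 6.46 and 13.4 CPM in SAT-DJB (log2 fold change 1.97, SE 0.63, adjusted p = 0.115). Without the 4 libraries that stood apart the median of the list was 0.35. Liver-type plasma protein genes were at a median of 4.28, all 13 positive, but the list summed to 704, 4345, 59.0, 106, 54.1 and 197 CPM in VAT-DJB libraries 1 to 6, against 15.001, 22.6, 21.9, 57.3 and 249 CPM in SAT-DJB. VAT-DJB library 2 held by far the most. Hp, which encodes the haemoglobin scavenger haptoglobin, was at 824 CPM in VAT-DJB library 2 and at 1.83 to 59.9 CPM in the other visceral libraries, against 2.08 to 29.4 CPM in SAT-DJB (log2 fold change 4.09, SE 1.37, adjusted p = 0.132). Among 20 immediate early genes 19 were positive, with a median of 0.85 and no call.

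**Figure D5:**
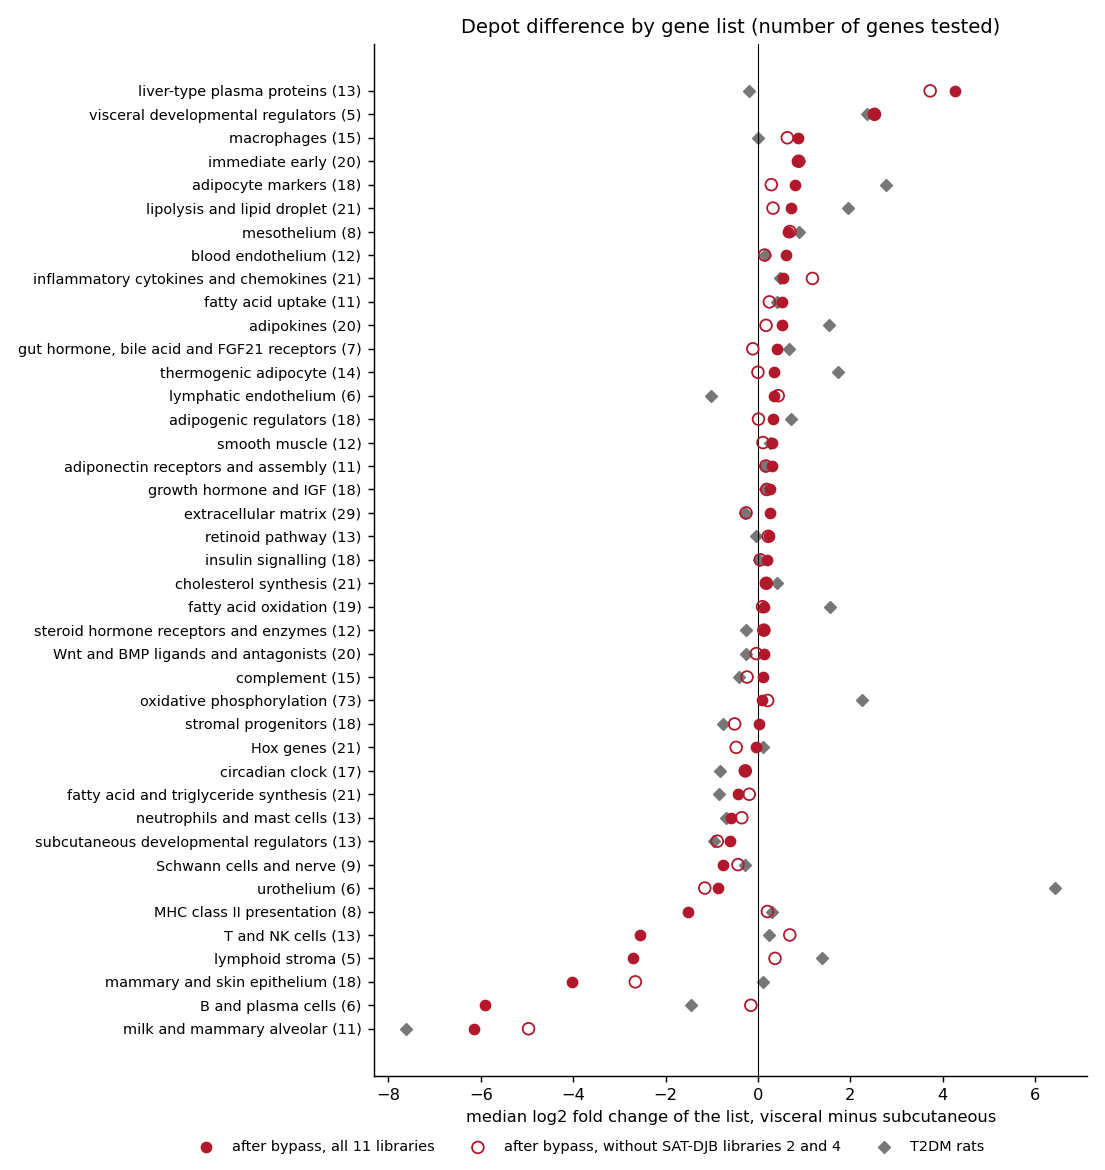
Median log2 fold change, visceral minus subcutaneous, of the 41 gene lists with at least 5 tested genes; filled circles are the DJB comparison with all 11 libraries, open circles the same without SAT-DJB libraries 2 and 4, and grey diamonds the T2DM comparison. The B cell list moves from -5.90 to -0.15 between filled and open circles. The visceral developmental regulators are at 2.52, 2.53 and 2.37, and at 1.07 without VAT-DJB libraries 5 and 6, which is not plotted.

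Set against the depot difference in the T2DM rats, the bypass group had fewer calls. After bypass 32 genes were higher and 153 lower in visceral fat, against 762 (5.44%) and 460 (3.28%) in T2DM, where 8.72% of the tested genes were called. Of the 185 genes called after bypass 86 were also called in T2DM in the same direction, which is 46.5% of the bypass calls and 7.04% of the T2DM calls, and 151 had the same sign. These were 31 of the 32 higher genes (96.9%) and 120 of the 153 lower genes (78.4%), where 60.3% of all tested genes had the same sign in both. The 2 comparisons use different libraries but 1 shared estimate of spread. The median of oxidative phosphorylation genes was 0.08 after bypass and 2.25 in T2DM, where 67 of 73 genes were higher; the difference of the medians was not tested. In T2DM the list was highest in VAT-T2DM libraries 2 and 5, at 37511 and 26492 CPM. The other 4 VAT-T2DM libraries had 3603 to 6602 CPM, against 3204 to 4155 CPM in SAT-T2DM. Without VAT-T2DM library 2 the T2DM median was 1.30 with 29 genes higher, and without library 5 it was 2.09 with 53 higher. Library 5 also held thermogenic adipocyte genes at 6343 CPM, where the other VAT-T2DM libraries had 280.3 to 780.2 CPM.

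The difference between the 2 depot differences was tested directly and no gene passed with edgeR's quasi-likelihood test (1957 genes at an unadjusted p under 0.05, smallest adjusted p = 0.120; 123 genes passed with DESeq2). The 5 genes of smallest p were Uchl1, Wbp1l, Sptssb, Tf and Ctse. Tf, the iron carrier transferrin, had a depot difference of 0.21 after bypass and -2.89 in T2DM, an interaction of 3.10 (adjusted p = 0.12). Uchl1, a ubiquitin hydrolase of neurons, had -0.55 after bypass and 7.78 in T2DM (interaction -8.33, adjusted p = 0.12). Ctse, an aspartic protease of antigen-presenting and epithelial cells, had -3.28 after bypass and 3.38 in T2DM (interaction -6.65, adjusted p = 0.12), and after bypass it was -0.28 without SAT-DJB libraries 2 and 4. In VAT-T2DM libraries 2, 3 and 4, which also held urothelial markers at the highest levels, Uchl1 was at 543, 426 and 330.0 CPM and Ctse at 109, 353 and 206 CPM, where the other VAT-T2DM libraries had at most 12.7 and 29.7 CPM; the part of these libraries in the interaction was not tested. For adiponectin the interaction was -2.56 (Adipoq, SE 1.04, adjusted p = 0.288), from 1.04 after bypass and 3.60 in T2DM.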

How the data were processed

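Per the submitters' processing notes, cutadapt 1.9, FastQC and the mRatBN7.2 build were used. The aligner, counter, strand setting and annotation were not given in the sources used here. Per the file headers, the deposited table holds a read count and an FPKM value (scaled to gene length and depth) for every gene and library. The members and gene lists were chosen with earlier results of these data known.

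The test kept 14019 of 24286 genes, those that reached 1 FPKM in 5 or more libraries. Counts were scaled by TMM (factors 0.543 to 1.39) and fitted with edgeR 4.0.16 in R 4.3.3, as 1 model with 4 group means over all 22 libraries. The contrasts were VAT-DJB minus SAT-DJB, the same depot difference in T2DM, and the difference between them. Tests were two-sided, with Benjamini-Hochberg adjustment over all 14019 genes and a threshold of 0.05. SE were derived from the fold change and its F statistic. The fit was tested on simulated counts. DESeq2 1.42.0 and limma 3.58.1 on log2(FPKM + 1) or log2(FPKM + 0.1) were alternatives, with other scalings and filters and with each library left out. With 46824314 to 88829000 counts per library, counting error was small beside the spread between libraries except for the lowest genes.

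Genes were named by rule: the 10 largest and 10 smallest folds and the 10 smallest p in each direction, among called genes without overlap between groups and averaging 5 FPKM or more in either depot; all Hox genes; up to 4 members of smallest p per list; 15 axis genes; and the 5 smallest interaction p. Slc34a2, Ptx3, Elf5, Btn1a1, Glycam1 and Foxf1 fall outside it and were chosen after their values were seen. For genes named by fold or p, the lack of overlap was set by the rule and is no separate result. The deposited coordinates are not printed, because their build could not be matched to a reference. Promoter sequences are RefSeq's, for GRCr8; the patterns searched were chosen after the genes. Genes that share reads with near-identical or overlapping genes are uncertain, since the handling of such reads is not given.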

Additional observations from a re-analysis of the deposited data

Results flagged for a closer look

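Dixon's test was applied to 109 genes, most of them named in the text, each in the VAT-DJB and in the SAT-DJB libraries. In 21 of these 218 groups, 1 library stood apart from the others. Chance flags about 1 in 20 groups. The test was run on log2 CPM. The values in parentheses below are the gap to the nearest library as a share of the group's range, both on that log2 scale. Levels are printed in CPM, so these shares cannot be read off them directly.

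VAT-DJB library 2 was lowest for 11 genes, all of milk or mammary cells except Sptssb. Csn1s1 was at 0.717 CPM there and at 247 to 555 CPM in the other visceral libraries (0.878). The shares were 0.868 for Btn1a1, 0.814 for Csn1s2a, 0.751 for Csn2, 0.827 for Csn3, 0.662 for Elf5, 0.851 for Lalba, 0.843 for Muc15, 0.825 for Olah, 0.807 for Oprpn and 0.775 for Sptssb. Glycam1 was at 0.201 CPM in VAT-DJB library 1 and at 0 in the other visceral libraries (1.00). Grb14 was at 9.46 CPM in VAT-DJB library 4 and at 24.4 to 38.0 CPM in the others (0.681).

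SAT-DJB library 2, which held few adipocyte transcripts, was lowest for Tbx15, at 9.15 CPM where the other subcutaneous libraries had 28.9 to 37.7 CPM (0.812). It was also lowest for Tcf21 (0.852), Gata6 (0.798), Gja5 (0.758), Esam (0.740) and Tnfaip6 (0.717), and highest for Il6, at 5.08 CPM where the others had 1.18 to 1.72 CPM (0.747). Esam is an adhesion molecule of endothelium. SAT-DJB library 5 was highest for Hpx, which encodes the haem carrier hemopexin, at 18.7 CPM where the others had 1.10 to 1.99 CPM (0.794). The cause of these values was not tested.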

How the results depend on the processing

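The 185 calls became 719 with DESeq2, 286 with a gene length trend removed, 110 with no filter on low values, 15 and 12 with limma on log2(FPKM + 1) and log2(FPKM + 0.1), and 7 with only the 11 DJB libraries. Leaving out 1 library gave 6 to 486 calls, and leaving out SAT-DJB libraries 2 and 4, VAT-DJB libraries 5 and 6, or all 4 gave 11, 3 and 4; these 3 settings were chosen after seeing the data. Some genes that edgeR did not call passed with DESeq2. They include Gata6 (adjusted p = 0.0325), Ccl2 (0.0314), Fads1 (0.013), Acacb (0.00676), Msr1 (0.0218) and Hp (0.0048). The difference between depot differences had 123 calls with DESeq2 and 0 to 1 with 1 library left out. Without all 4 libraries the milk share differed by -1.10 percentage points (exact permutation p = 0.0571, the smallest that 4 against 3 libraries allow). The milk list was chosen with earlier results of these data known. Cd79b changed sign, to 0.92 without SAT-DJB libraries 2 and 4 and 1.24 without all 4. The cause of the other changes was not tested. Counting error limits only the lowest genes; the spread between 5 and 6 libraries limits the rest.

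With the replicate number as a block, 1 gene was called (Tbx15). Deviations of same-numbered DJB libraries had correlations of 0.246, 0.0498, -0.135, -0.0629 and -0.159 for numbers 1 to 5. Of the 5 numbers only number 1 exceeded its highest correlation with another number. These correlations cannot decide whether same-numbered libraries came from 1 rat, which the labels do not say.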

Other observations

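Several gene groups had no member called by edgeR's test after bypass. Of 29 extracellular matrix genes none was called, with a median log2 fold change of 0.26 and of -0.26 without SAT-DJB libraries 2 and 4. Of 18 stromal progenitor markers none was called (median 0.01). The same held for 15 complement genes (median 0.11), 12 genes of steroid hormone receptors and enzymes (0.13) and 20 Wnt and BMP ligands and antagonists (0.13). With DESeq2, the matrix genes Timp1 (adjusted p = 0.000926), Col8a1 (0.00192), Tnc (0.00275) and Thbs1 (0.00357) passed. So did Sgk1 (0.00587) of the steroid, Inhbb (0.00871) of the Wnt and BMP and Cfb (0.0398) of the complement list. Every visceral library was above every subcutaneous one in 2 matrix genes and 1 steroid gene, and in 0.827% of all tested genes. With TPM scaling, which put the median of all genes at -0.16, the medians of the matrix (-0.07), stromal (-0.22), complement (-0.07), steroid (-0.19) and Wnt and BMP lists (-0.02) were negative. Among 17 circadian clock genes, without a call, 12 were negative, with a median of -0.28.

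Adipogenic regulators (18 genes, median 0.33), fatty acid uptake (11 genes, all positive, median 0.52) and lipolysis and lipid droplet genes (21 genes, 19 positive, median 0.72) had no call either. Over all genes, 46.5% were positive. Smooth muscle markers (12 genes, median 0.32), lymphatic endothelial markers (6 genes, 0.34) and neutrophil and mast cell markers (13 genes, -0.59) also had none. Urothelial markers, 6 genes without a call after bypass (median -0.87), had a median of 6.43 in T2DM, with 3 genes higher in visceral fat. They summed to 1081, 878 and 569.6 CPM in VAT-T2DM libraries 2, 3 and 4 and to 2.78 to 27.2 CPM in the other VAT-T2DM libraries, against 3.53 to 6.50 CPM in SAT-T2DM. Libraries 2, 3 and 4 also held mammary and skin epithelial markers at 2099 to 3687 CPM, where the other VAT-T2DM libraries had 32.6 to 128 CPM; the part of these markers in the difference was not tested.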
